A study of Homo sapiens with 8 samples.

Results

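The receptor for interferon-γ (IFNγ), the 4 Janus kinases (JAK) and 4 inhibitors of JAK signaling were examined in intestinal epithelial cells (hIECs) made from human pluripotent stem cells. The 10 genes were chosen by name as IFNGR1, IFNGR2, JAK1, JAK2, JAK3, TYK2, SOCS1, SOCS2, SOCS3 and CISH, and their rows were taken from a table of 60558 genes. All 10 were measured in every library and passed the filter on low values. The rule uses gene names and no measured value, but the genes were chosen with earlier results of these data known.

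RNA-seq covered 2D hIECs in 4 groups of 2 libraries each. Normal hIECs received neither cytokines nor particles, and normal hIECs with PM10 received particulate matter of the PM10 size class. Inflamed hIECs were treated with 50 ng/ml IFNγ and 50 ng/ml TNFα (tumor necrosis factor α) for 10 days, and inflamed hIECs with PM10 received the same cytokines and the particles. According to the methods of the study, the PM10 dose was 100 μg/ml, given in the last 7 of the 10 days, while the sample labels give 10 days for every group. All 8 libraries came from 1 established line of human embryonic stem cells, H9. The labels do not say whether the 2 libraries of a group came from separate cultures, and the p-values measure only the spread between these libraries, which may be technical.

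IFNγ binds a receptor built from IFNGR1, which holds the ligand, and IFNGR2, which completes the signaling complex. IFNGR1 carries JAK1 and IFNGR2 carries JAK2, and the activated kinases pass the signal to the nucleus, where genes such as IRF1 and SOCS1 are switched on. SOCS1 binds JAK kinases and blocks them, SOCS3 blocks JAK kinases mainly at receptors of the IL-6 family, and SOCS2 and CISH are best known as targets and brakes of STAT5 signaling from growth hormone and related receptors.

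The cell identity was checked against marker genes. Of 13 intestinal epithelial markers, CDX2, VIL1, LYZ, MUC2, CHGA and KRT20 were listed at 0 FPKM in all 8 libraries, EPCAM did not exceed 0.622 FPKM, and CDH1 was above 0 in 1 library. SOX9 and LGR5 were detected in all 8, at 3.66 to 14.97 and 2.01 to 8.28 FPKM. The most abundant of the 13 was KRT8, with 185 to 383 FPKM. The 12 mesenchymal markers were all detected and summed to between 3816 and 4565 FPKM, with VIM the most abundant. These markers go against the label of an intestinal epithelium, so hIECs is used here only as the name of the cultures. Because these are bulk libraries, fewer cells of one type and less RNA per cell cannot be told apart.

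Levels are given as FPKM, a read depth scaled to transcript length and to the size of the library, so levels of different genes can be set side by side. The lowest value above 0 in each library was taken to stand for a mean depth of 1 over the transcript. On that assumption, an FPKM of 1 corresponded to a mean depth of 4.38 to 6.11. The lowest member value, 1.71 FPKM of SOCS1, then corresponded to a mean depth of 7.91. Genes of mitochondrial DNA took 17.02% and 24.2% of the summed FPKM of normal hIECs and 15.5% to 20.4% of that of the other 6 libraries. Differences are given on the scale of log2(FPKM + 1), with the standard error (SE) of limma and a p-value adjusted over the 14206 genes tested. This scale understates the change of weakly expressed genes such as SOCS1 and JAK2.

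JAK1 was the most abundant member in all 8 libraries, at 22.9 to 28.4 FPKM. IFNGR2 (18.9 to 25.03 FPKM), TYK2 (16.2 to 21.2 FPKM) and IFNGR1 (15.1 to 20.2 FPKM) lay below it, and their order changed from library to library. SOCS1 was the lowest member in all 4 libraries without cytokines. With cytokines, CISH or SOCS2 took the last place, and SOCS1 stood above JAK2, JAK3, SOCS2 and CISH.

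**Figure D1:**
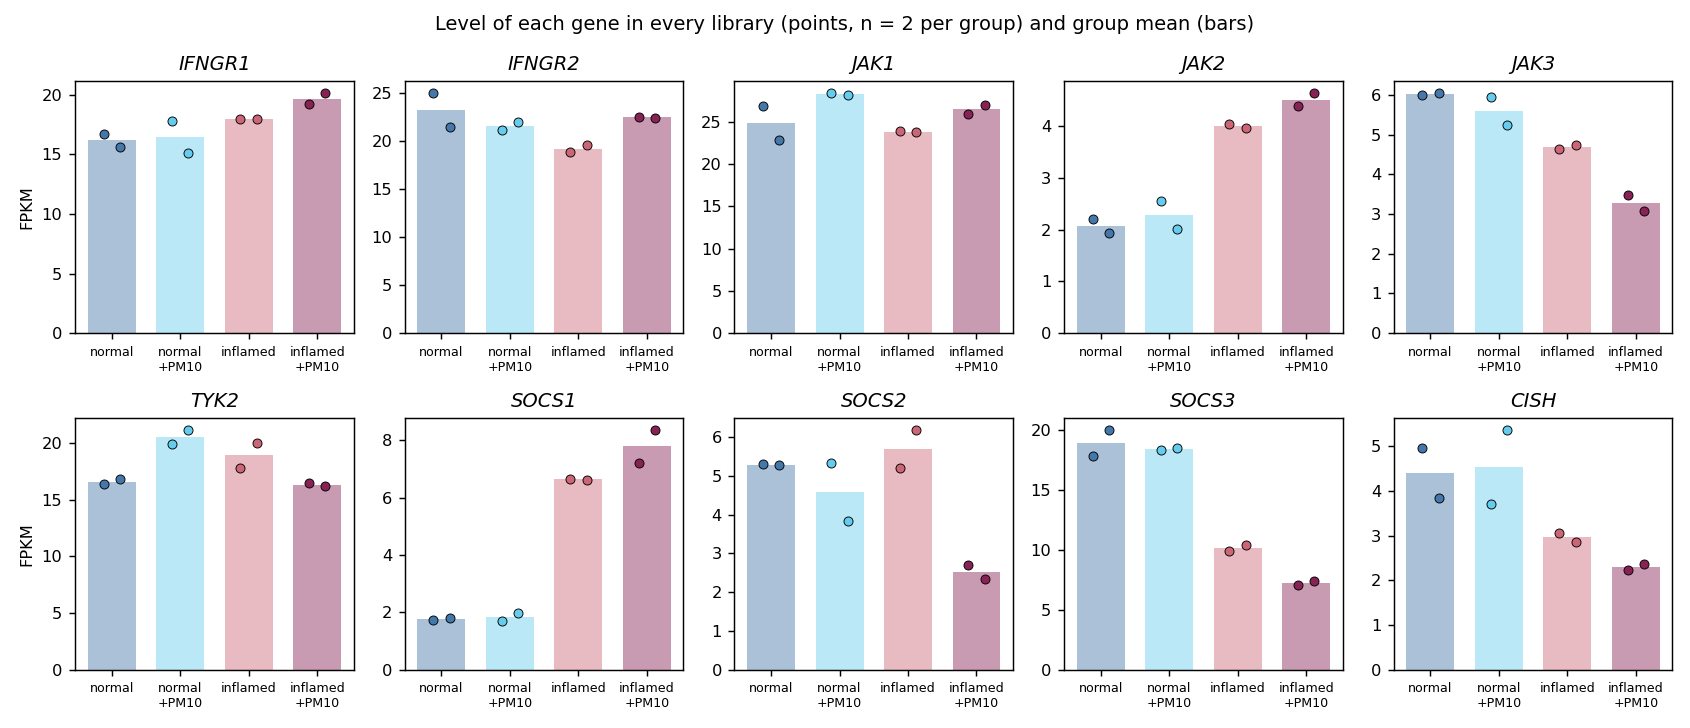
FPKM of the 10 genes (vertical axis of each panel, starting at 0) in the 4 groups, with points for single libraries and bars for the mean of 2. SOCS1 and JAK2 stand higher in all 4 libraries with cytokines than in the 4 without, whereas SOCS3, JAK3 and CISH stand lower.

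First, inflamed hIECs were compared with normal hIECs to see how the pathway stood after the cytokines. SOCS1 and JAK2 rose, SOCS3, CISH, JAK3 and IFNGR2 fell, and 4 members did not pass the test. The 6 of 10 members called (60%) compare with 56.2% of all genes tested, so the number of members called was near the background. Of all genes, 25.9% were called higher, beside 2 of 10 members, and 30.3% were called lower, beside 4 of 10. The largest change was that of SOCS1, at 3.76-fold in mean FPKM, followed by JAK2 at 1.94-fold, and the largest decrease was that of SOCS3, which was 1.86-fold lower. The median difference of the 10 members was 0.02 on the log2 scale, beside -0.03 for all genes.

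The same cytokine comparison was then made within the PM10-treated cultures, which are other libraries. SOCS1, JAK2 and IFNGR1 rose, and SOCS3, CISH, SOCS2, JAK3 and TYK2 fell. The 8 of 10 members called (80%) compare with 65.4% of all genes. The median of the members was -0.20 on the log2 scale, beside -0.11 for all genes. An exact permutation test (two-sided) of 2 libraries against 2 has 0.333 as its smallest p-value, so all calls rest on limma and the spread it pools over genes and groups.

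**Figure D2:**
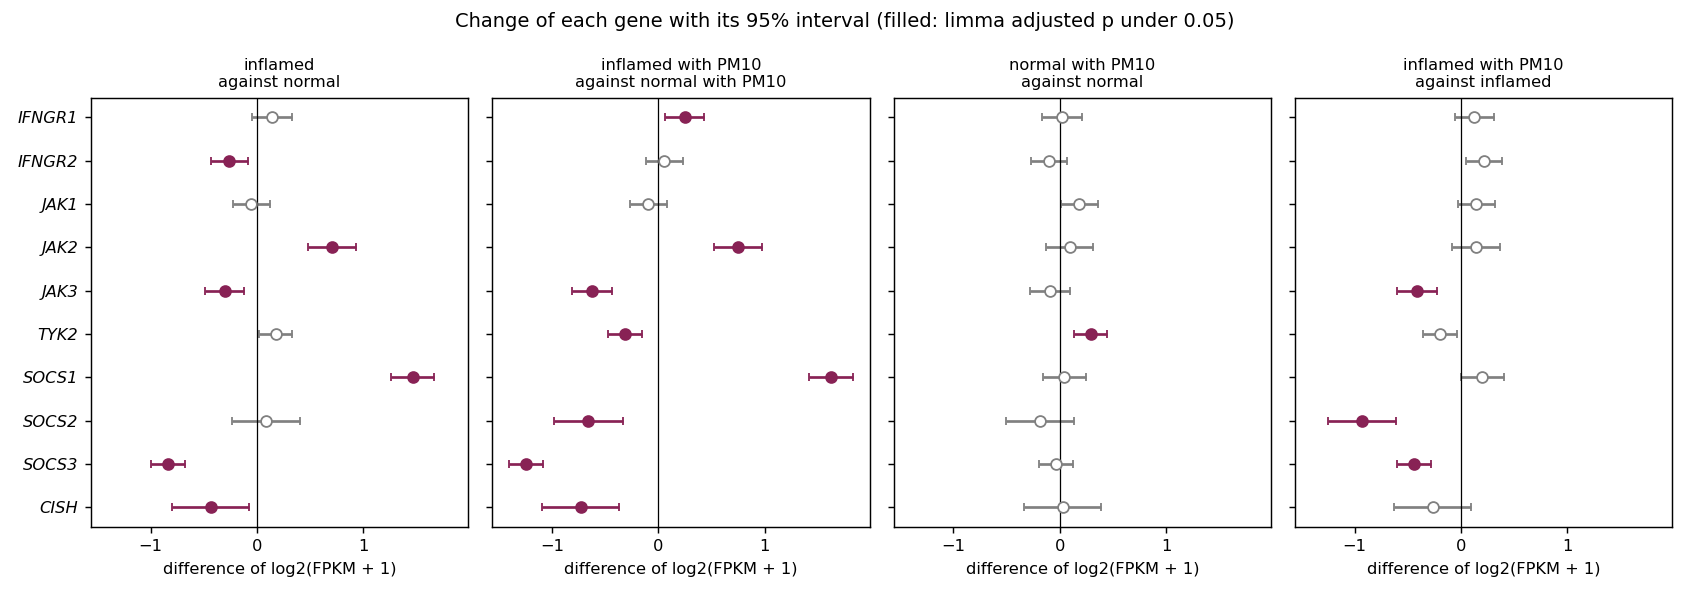
Difference of log2(FPKM + 1) for each of the 10 genes (points) with its 95% interval (bars) in 4 comparisons, filled where the limma adjusted p was under 0.05. In both cytokine comparisons (left 2 panels) SOCS1 and JAK2 lie to the right of 0 and SOCS3, JAK3 and CISH to the left, and in the panel for PM10 in normal hIECs only TYK2 is filled.

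Of the receptor chains, IFNGR2 fell in the cytokine comparison without PM10 and IFNGR1 rose in the one with PM10. IFNGR1 (ENSG00000027697, GRCh38 chr6:137197483-137219449, minus strand), the ligand-binding chain, had 16.7 and 15.7 FPKM in normal hIECs, 17.8 and 15.1 in normal hIECs with PM10, 18.0 and 18.0 in inflamed hIECs, and 19.2 and 20.2 in inflamed hIECs with PM10. Both libraries of each cytokine group lay above both of the matching group without cytokines. In the PM10-treated cultures IFNGR1 was 1.19-fold higher with cytokines (log2 difference 0.25, SE 0.08, limma adjusted p = 0.0269). Without PM10 the difference was 0.14 (95% interval -0.04 to 0.33, limma adjusted p = 0.165). The call in the PM10-treated cultures was lost without replicate 2 of normal hIECs with PM10 (limma adjusted p = 0.159) and without either library of inflamed hIECs with PM10 (0.0614 and 0.126), and in a fit of only the 4 libraries compared (0.0564).

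IFNGR2 (ENSG00000159128, chr21:33403413-33479348, plus strand), the signaling chain, had 25.03 and 21.5 FPKM in normal hIECs, 21.2 and 22.0 with PM10, 18.9 and 19.6 in inflamed hIECs, and 22.6 and 22.5 in inflamed hIECs with PM10. The inflamed libraries were the lowest of the 8. IFNGR2 was 1.21-fold lower in inflamed than in normal hIECs (log2 difference -0.26, SE 0.07, limma adjusted p = 0.0194). The difference between the PM10-treated groups was 0.06 (95% interval -0.11 to 0.23). Adding PM10 to the cytokines gave 0.22 (95% interval 0.04 to 0.39, limma adjusted p = 0.0887), which passed the test without either normal library (0.0209 and 0.0207), after median centring (0.0475) and in a fit of only the 4 libraries compared (0.0381). The call in inflamed hIECs was lost without inflamed replicate 1 (limma adjusted p = 0.0981) or 2 (0.0517), and in a fit of only the 4 libraries compared (0.0633). An exon of IFNGR2 overlaps TMEM50B on the other strand, with 11.7 to 20.6 FPKM, and the libraries carry no strand information, so reads of the overlap cannot be told apart.

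Among the kinases, JAK2 rose and JAK3 fell, whereas JAK1 was called by limma in none of the 5 comparisons (1 of 5 at an unadjusted p under 0.05). JAK1 (ENSG00000162434, chr1:64833223-65067754, minus strand), which serves nearly all interferon receptors and many interleukin receptors, had 26.9 and 22.9 FPKM in normal hIECs, 28.4 and 28.2 with PM10, 23.9 and 23.8 in inflamed hIECs, and 25.98 and 27.0 in inflamed hIECs with PM10. The normal libraries enclosed the inflamed ones, and the log2 difference was -0.05 (95% interval -0.23 to 0.12). This value depended on the normal library used, with 0.06 without normal replicate 1 and -0.17 without normal replicate 2 (limma adjusted p = 0.0284). JAK1 shares exon sequence with RAVER2 on the other strand, which had 3.39 to 5.71 FPKM.

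JAK2 (ENSG00000096968, chr9:4984390-5129948, plus strand), the kinase that IFNGR2 carries, was the weakest of the 4 kinases in the absence of cytokines. It had 2.199 and 1.94 FPKM in normal hIECs and 2.55 and 2.02 in normal hIECs with PM10. Inflamed hIECs had 4.05 and 3.97 FPKM, and inflamed hIECs with PM10 had 4.38 and 4.64. All 4 libraries with cytokines lay above the 4 without. JAK2 rose 1.94-fold in inflamed hIECs (log2 difference 0.71, SE 0.10, limma adjusted p = 0.000583) and 1.98-fold between the PM10-treated groups (0.75, SE 0.10, limma adjusted p = 0.000331). Neither call was lost under any alternative that kept the gene. No other gene overlaps an exon of JAK2.

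The ratio of JAK2 to JAK1 in the same library does not depend on the scaling between libraries. It was 0.0818 and 0.0848 in normal hIECs and 0.0896 and 0.0716 with PM10. With cytokines it was 0.169 and 0.167, and with cytokines and PM10 it was 0.169 and 0.172. The 4 ratios with cytokines thus lay close together and above the 4 without, although JAK1 remained far more abundant than JAK2 in every library.

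JAK3 (ENSG00000105639, chr19:17824780-17848071, minus strand) works with receptors that use the common γ chain, encoded by IL2RG, and is best known from lymphocytes. It had 6.01 and 6.05 FPKM in normal hIECs, 5.95 and 5.24 with PM10, 4.64 and 4.74 in inflamed hIECs, and 3.48 and 3.07 in inflamed hIECs with PM10. The values fell into steps, with inflamed hIECs below both groups without cytokines and inflamed hIECs with PM10 below all other libraries. JAK3 was 1.29-fold lower in inflamed than in normal hIECs (log2 difference -0.30, SE 0.08, limma adjusted p = 0.0137) and 1.71-fold lower in the cytokine comparison with PM10 (-0.62, SE 0.08, limma adjusted p = 0.000338). IL2RG was listed at 0 in all 8 libraries, as were the lymphocyte markers CD3E, CD4, CD8A and MS4A1. The first of these calls was lost without inflamed replicate 1 (limma adjusted p = 0.0665) or 2 (0.0506).

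TYK2 (ENSG00000105397, chr19:10350533-10380608, minus strand), the kinase of type I interferon and IL-12 family receptors, showed no common direction. It had 16.4 and 16.8 FPKM in normal hIECs, 19.9 and 21.2 with PM10, 17.8 and 20.01 in inflamed hIECs, and 16.5 and 16.2 in inflamed hIECs with PM10. Normal hIECs and inflamed hIECs with PM10 were low, and the other 2 groups were high and overlapped. The cytokine comparison gave 0.18 on the log2 scale without PM10 (95% interval 0.02 to 0.33, limma adjusted p = 0.0550). With PM10, TYK2 was 1.26-fold lower after cytokines (-0.31, SE 0.07, limma adjusted p = 0.00437). Without inflamed replicate 1, the difference without PM10 was 0.26 and passed the test (limma adjusted p = 0.0277). With all 8 libraries it also passed after rescaling without genes of mitochondrial DNA (0.21, limma adjusted p = 0.0260), with at least 5 FPKM (0.0498) and with the replicate block (0.0490).

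The inhibitors moved in opposite directions. SOCS1 (ENSG00000185338, chr16:11254417-11256204, minus strand), the inhibitor that acts on JAK kinases of the IFNγ receptor, had 1.74 and 1.79 FPKM in normal hIECs and 1.71 and 1.99 in normal hIECs with PM10. It had 6.64 and 6.62 FPKM in inflamed hIECs and 7.21 and 8.37 in inflamed hIECs with PM10. The lowest library with cytokines thus stood well above the highest without. SOCS1 rose 3.76-fold in inflamed hIECs (log2 difference 1.46, SE 0.09, limma adjusted p = 9.73e-06) and 4.21-fold between the PM10-treated groups (1.62, SE 0.09, limma adjusted p = 4.12e-06). Both calls held under every alternative run, with log2 differences of 1.45 to 1.85 and of 1.53 to 2.01. No exon of another gene overlaps SOCS1.

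SOCS3 (ENSG00000184557, chr17:78356778-78360077, minus strand), the inhibitor that binds the shared IL-6 receptor chain IL6ST, was the most abundant of the 4 in normal hIECs. It had 17.8 and 20.02 FPKM there, 18.4 and 18.5 with PM10, 9.91 and 10.4 in inflamed hIECs, and 7.06 and 7.37 in inflamed hIECs with PM10. The groups without cytokines overlapped each other, and each cytokine group lay below them, the one with PM10 lowest. SOCS3 was 1.86-fold lower in inflamed than in normal hIECs (log2 difference -0.84, SE 0.07, limma adjusted p = 4.41e-05). With PM10 it was 2.56-fold lower (-1.24, SE 0.07, limma adjusted p = 4.43e-06). Both calls held under every alternative run.

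The ratio of SOCS1 to SOCS3 within a library summarises these opposite changes. It was 0.0977 and 0.0893 in normal hIECs and 0.0934 and 0.107 with PM10. In inflamed hIECs it was 0.671 and 0.637, and in inflamed hIECs with PM10 it was 1.02 and 1.14. SOCS3 therefore exceeded SOCS1 in the 6 libraries of the first 3 groups, and SOCS1 exceeded SOCS3 in both libraries with cytokines and PM10.

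**Figure D3:**
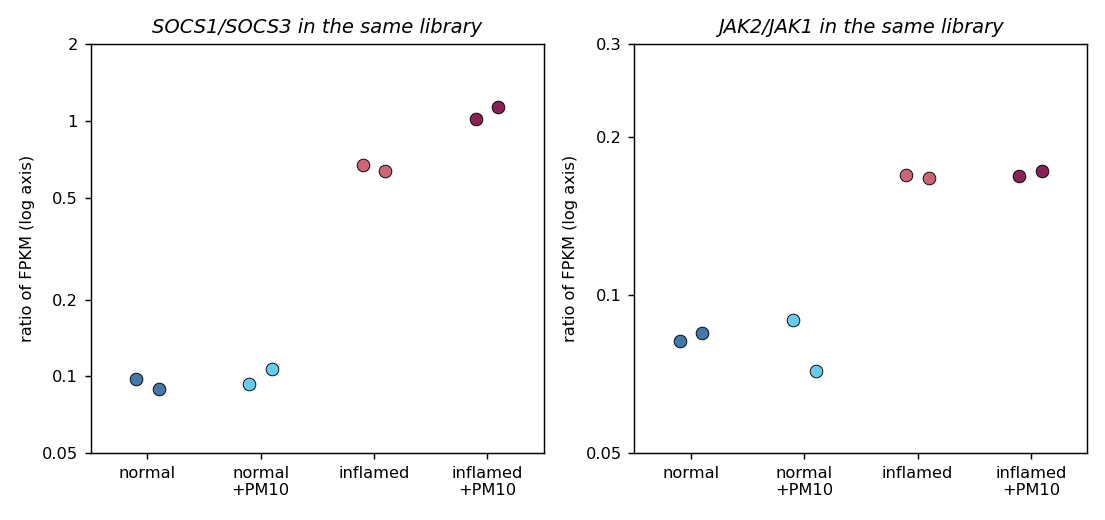
Ratio of FPKM of SOCS1 to SOCS3 (left) and of JAK2 to JAK1 (right) in each library, on a log axis, with 1 point per library and 2 per group. The SOCS1 to SOCS3 ratio is near 0.1 without cytokines, 0.637 and 0.671 in inflamed hIECs and 1.02 and 1.14 with PM10 added, while the JAK2 to JAK1 ratio lies between 0.167 and 0.172 in all 4 libraries with cytokines.

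CISH (ENSG00000114737, chr3:50606489-50611774, minus strand), a STAT5 target that binds activated cytokine receptors, had 4.95 and 3.83 FPKM in normal hIECs, 3.701 and 5.36 with PM10, 3.06 and 2.87 in inflamed hIECs, and 2.22 and 2.37 in inflamed hIECs with PM10. The groups without cytokines were widely spread and overlapped, and every library with cytokines lay below them. CISH was 1.97-fold lower in the cytokine comparison with PM10 (log2 difference -0.73, SE 0.15, limma adjusted p = 0.00426), a call that held under every alternative that kept the gene. Without PM10 it was 1.48-fold lower (-0.44, SE 0.15, limma adjusted p = 0.0439), and this call was lost without normal replicate 1 (limma adjusted p = 0.217), inflamed replicate 1 (0.103) or 2 (0.152), or either library of inflamed hIECs with PM10 (0.0652 and 0.0652). MAPKAPK3, which overlaps an exon of CISH on the other strand, had 19.2 and 19.9 FPKM in normal hIECs and 13.7 and 14.6 in inflamed hIECs, and its part in the CISH values was not tested.

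SOCS2 (ENSG00000120833, chr12:93569814-93583487, plus strand), an inhibitor of growth hormone signaling, had 5.30 and 5.28 FPKM in normal hIECs, 5.34 and 3.82 with PM10, 5.19 and 6.18 in inflamed hIECs, and 2.69 and 2.33 in inflamed hIECs with PM10. Only inflamed hIECs with PM10 stood apart, below all 6 other libraries. The cytokine comparison gave 0.09 on the log2 scale without PM10 (95% interval -0.24 to 0.41), with -0.02 without inflamed replicate 2. With PM10, SOCS2 was 1.82-fold lower after cytokines (-0.66, SE 0.14, limma adjusted p = 0.00402). SOCS2-AS1, an antisense gene over an exon of SOCS2, had 0 to 1.29 FPKM.

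The sequence before the start of SOCS1 and CISH is shown because these 2 genes moved in opposite directions and were the members whose RefSeq promoter windows held a match to either of 2 motifs. STAT dimers are known to bind TTCNNNGAA, and factors of the IRF family bind repeats of GAAA with 2 bases between them. Windows from 250 bases before to 50 bases after a RefSeq start (GRCh38.p14) were matched by symbol for all members but SOCS2, and both strands were searched. Some members had several windows, for different starts. TTCNNNGAA, which reads the same on both strands, occurred in 7.66% of 35116 windows of this length, and the GAAA repeat in 3.57%. Capitals mark the matches, and each line gives the 250 bases before the start on the strand of the gene.
SOCS1, chr16:11256205-11256454: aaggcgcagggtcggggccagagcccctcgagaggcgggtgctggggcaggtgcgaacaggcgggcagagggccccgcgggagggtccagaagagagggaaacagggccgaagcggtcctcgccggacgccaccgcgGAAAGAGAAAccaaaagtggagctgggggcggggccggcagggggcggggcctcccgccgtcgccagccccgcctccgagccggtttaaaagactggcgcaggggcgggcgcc
CISH, chr3:50611775-50612024: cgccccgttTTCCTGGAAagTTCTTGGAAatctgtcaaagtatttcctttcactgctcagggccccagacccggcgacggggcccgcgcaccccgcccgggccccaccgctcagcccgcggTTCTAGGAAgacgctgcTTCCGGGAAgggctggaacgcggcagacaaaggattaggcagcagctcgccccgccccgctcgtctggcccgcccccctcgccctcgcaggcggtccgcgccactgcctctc

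SOCS1 held 1 match to the GAAA repeat, GAAAGAGAAA, at bases -113 to -104 from the start. CISH held 4 matches to TTCNNNGAA, which were TTCCTGGAA (-241 to -233), TTCTTGGAA (-230 to -222), TTCTAGGAA (-129 to -121) and TTCCGGGAA (-112 to -104). None of the matches overlapped another. Neither motif occurred in the windows of IFNGR1, IFNGR2, JAK1, JAK2, JAK3, TYK2 or SOCS3, which says only that these letters are not in those windows. The SOCS3 windows (chr17:78360876-78361175 and chr17:78359618-78359917) did not hold the start at 78360077 given above for SOCS3. The sequence directly before that start was therefore not searched. Of the JAK2 windows, chr9:5041282-5041581 lay inside the gene.

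In normal hIECs, TYK2 was the 1 member of 10 called after PM10 (10%), beside 9.23% of all genes, so the share called was near the background. TYK2 rose 1.24-fold (log2 difference 0.29, SE 0.07, limma adjusted p = 0.0397), and both libraries with PM10 lay above both without. This call was lost without either library of normal hIECs (limma adjusted p = 0.0649 and 0.0923), of normal hIECs with PM10 (0.118 and 0.178) or of inflamed hIECs with PM10 (0.0767 and 0.0768), after median centring (0.0699) or quantile normalization (0.0787), with no filter on low values (0.0552), without the trend (0.0582) and in a fit of only the 4 libraries compared (0.137), and it held under 7 of 18 alternatives. SOCS1 differed by 0.04 on the log2 scale (95% interval -0.16 to 0.25), SOCS3 by -0.03 (-0.19 to 0.13) and JAK2 by 0.09 (-0.13 to 0.32). JAK1 differed by 0.18 (limma adjusted p = 0.153), and by 0.30 without normal replicate 1 (limma adjusted p = 0.0150), the library with the smaller mitochondrial share of the 2. Over all genes called, 59.7% were higher, a share that was 42.9% after median centring and 74.9% after rescaling without genes of mitochondrial DNA.

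In inflamed hIECs, PM10 was followed by lower SOCS2, SOCS3 and JAK3. These 3 of 10 members (30%) compare with 15.2% of all genes, and with 9.02% of all genes called lower. SOCS2 fell most, to 2.27-fold lower (log2 difference -0.93, SE 0.14, limma adjusted p = 0.00616), and this call held under every alternative run. SOCS3 was 1.41-fold lower (-0.44, SE 0.07, limma adjusted p = 0.00720), and JAK3 was 1.43-fold lower (-0.41, SE 0.08, limma adjusted p = 0.0158). All 4 pairs of libraries had the direction of the mean for these 3 genes, as was the case for 65.1% of all genes tested in one direction or the other.

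The SOCS3 call was lost without inflamed replicate 2 (limma adjusted p = 0.0567) or replicate 1 of inflamed hIECs with PM10 (0.0545), and the JAK3 call without inflamed replicate 1 (0.0781) or 2 (0.0899) or replicate 2 of inflamed hIECs with PM10 (0.0964). SOCS1 differed by 0.20 on the log2 scale (95% interval -0.0031 to 0.40, limma adjusted p = 0.161), and JAK2 by 0.14 (-0.09 to 0.36). CISH differed by -0.27 (-0.63 to 0.10) and IFNGR1 by 0.13 (-0.06 to 0.31). JAK1 differed by 0.14 (limma adjusted p = 0.228), and passed the test without normal replicate 1 (0.0480) or 2 (0.0476). The median of the 10 members was -0.04, beside -0.01 for all genes.

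Whether PM10 changed the members differently in inflamed and normal hIECs was tested as the interaction of PM10 and cytokines. TYK2 was the 1 member of 10 called, beside 6.6% of all genes. Its PM10 difference was 0.29 in normal and -0.20 in inflamed hIECs, the latter not called (limma adjusted p = 0.0861), and the interaction was -0.49 (SE 0.09, limma adjusted p = 0.0287). SOCS3 had an interaction of -0.41 (limma adjusted p = 0.0507), SOCS2 of -0.74 (limma adjusted p = 0.0668), and IFNGR2 one of 0.32 (limma adjusted p = 0.124), none of which passed the test. With all 8 libraries, SOCS3 passed with a pseudocount of 0.1 or 0.5, with at least 5 FPKM, after rescaling without genes of mitochondrial DNA and with the replicate block (limma adjusted p = 0.0399 to 0.0493), and IFNGR2 after median centring (0.0439) and quantile normalization (0.0461). The TYK2 call was lost without either library of normal hIECs with PM10 (limma adjusted p = 0.0739 and 0.103), without inflamed replicate 2 (0.0874) and without either library of inflamed hIECs with PM10 (0.0905 and 0.101). SOCS3 also passed without normal replicate 2 (0.0227), as did IFNGR2 (0.0246), and SOCS2 without replicate 2 of normal hIECs with PM10 (0.0438). Over all genes, 32% of the genes called had a positive interaction, 45.7% after median centring and 46.6% after quantile normalization.

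Upstream of the members, most ligands of JAK-coupled receptors were not detected. Of 26 ligand genes, 19 were listed at 0 in all 8 libraries, IFNG among them. Of the 5 that passed the filter, IL6, LIF, IL15 and IL11 rose and PRL fell in inflamed hIECs, where 56.2% of all genes were called. IL6 and IL15 passed the filter only through the libraries with cytokines, so their direction was largely set by it. The directions of all 5 were the same with PM10, where 65.4% of all genes were called. LIF, a ligand of IL6ST and LIFR, had 3.03 and 3.16 FPKM in normal hIECs, 33.2 and 35.7 in inflamed hIECs, and 69.1 and 67.8 in inflamed hIECs with PM10. IL6 had 0.796 and 1.11 FPKM in normal hIECs, 26.4 and 21.3 in inflamed hIECs and 6.45 and 6.51 in inflamed hIECs with PM10. LIF was thus highest, and IL6 intermediate, in the group where SOCS3 was lowest. A link between these ligands and SOCS3 was not tested. Leaving out 1 library left 3 or 4 of the ligands called higher without PM10.

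Other JAK-coupled receptors were measured as well. Of 27 such genes, 15 passed the filter, and 9 rose and 2 fell in inflamed hIECs, beside 25.9% of all genes called higher and 30.3% called lower. The rise included IFNAR1 and IFNAR2, the type I interferon receptor chains (log2 differences 0.72 and 0.58), IL6ST (0.61), IL4R (0.81) and IL7R (0.83). IL15RA, the IL-15 binding chain, was listed at 0 in the 4 libraries without cytokines and had 17.9 to 19.7 FPKM in the 4 with them. IL15RA and IL2RB, both among the genes that rose, passed the filter only through libraries with cytokines. CNTFR, a receptor chain of the IL-6 family, had 14.2 and 15.5 FPKM in normal hIECs and 0.983 and 0.988 in inflamed hIECs. CNTFR passed the filter only through the libraries without cytokines, so its direction was largely set by it. The other receptor gene that fell, IL11RA, did so by 0.78 on the log2 scale. IL6R, IL10RA and IL22RA1, the specific chains for IL-6, IL-10 and IL-22, were at 0 in every library.

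The STAT factors, which JAK kinases phosphorylate, were also compared between inflamed and normal hIECs. STAT2, STAT4 and STAT5A rose by 0.68, 0.71 and 0.98 on the log2 scale. STAT3, the factor activated through IL6ST, fell by 0.24 and STAT6 by 0.20. The calls of these decreases were not both kept in every fit with a single library left out.

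Genes of the IFNγ response were called in full. All 17 that passed the filter, of 18, rose in inflamed hIECs, beside 25.9% of all genes called higher. Their median log2 difference was 4.15, beside -0.03 for all genes tested. Both the count and the median include GBP4, GBP5, CXCL9, CXCL11, IDO1, NLRC5 and HLA-DRA. These genes passed the filter only through the libraries with cytokines, so their direction was largely set by it. IRF1, a transcription factor of the interferon response, had 4.21 and 3.09 FPKM in normal and 81.2 and 81.3 in inflamed hIECs. CXCL10, a chemokine, had 1.73 and 1.27 FPKM in normal hIECs and 1314 and 1283 in inflamed hIECs. Of 15 TNF response genes, 14 passed the filter and all 14 rose, with a median of 2.16, beside 25.9% of all genes called higher. Among the 14, BIRC3, CXCL8, CXCL1, TRAF1 and IL6 likewise passed the filter only through the libraries with cytokines. ICAM1, an adhesion molecule, rose by 4.66 on the log2 scale, and CCL2, a chemokine, by 4.31. CIITA, the master regulator of MHC class II genes, remained under the filter, with at most 0.388 FPKM.

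Attenuators other than the 4 inhibitors were also measured. Of 10 genes, 9 passed the filter, and 6 rose and 1 fell in inflamed hIECs, where 25.9% of all genes were called higher and 30.3% lower. Leaving out 1 library left 5 or 6 called higher. With PM10, 5 rose after cytokines, without PIAS2, and 2 fell, where 65.4% of all genes were called. USP18, an inhibitor of the type I interferon receptor, had 1.93 and 1.68 FPKM in normal hIECs and 10.3 and 10.3 in inflamed hIECs, which was 5.71-fold higher (limma adjusted p = 5.43e-07). SH2B3, an adaptor that restrains JAK2, had 10.3 and 9.56 FPKM in normal hIECs and 28.5 and 29.7 in inflamed hIECs, which was 2.93-fold higher (limma adjusted p = 1.10e-06). PTPN1 and PTPN2, phosphatases that act on JAK kinases, rose by 0.54 and 0.70 on the log2 scale. PIAS3, an inhibitor of STAT3, fell by 0.27.

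The remaining SOCS family genes, SOCS4 to SOCS7, all passed the filter. SOCS4 rose by 0.36 and SOCS5 fell by 0.58 on the log2 scale in inflamed hIECs, and both had the same direction and passed the test with PM10. The SOCS4 call with PM10 was not kept in every fit with a single library left out. SOCS5 had 9.08 and 7.70 FPKM in normal hIECs and 5.57 and 5.01 in inflamed hIECs.

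**Figure D4:**
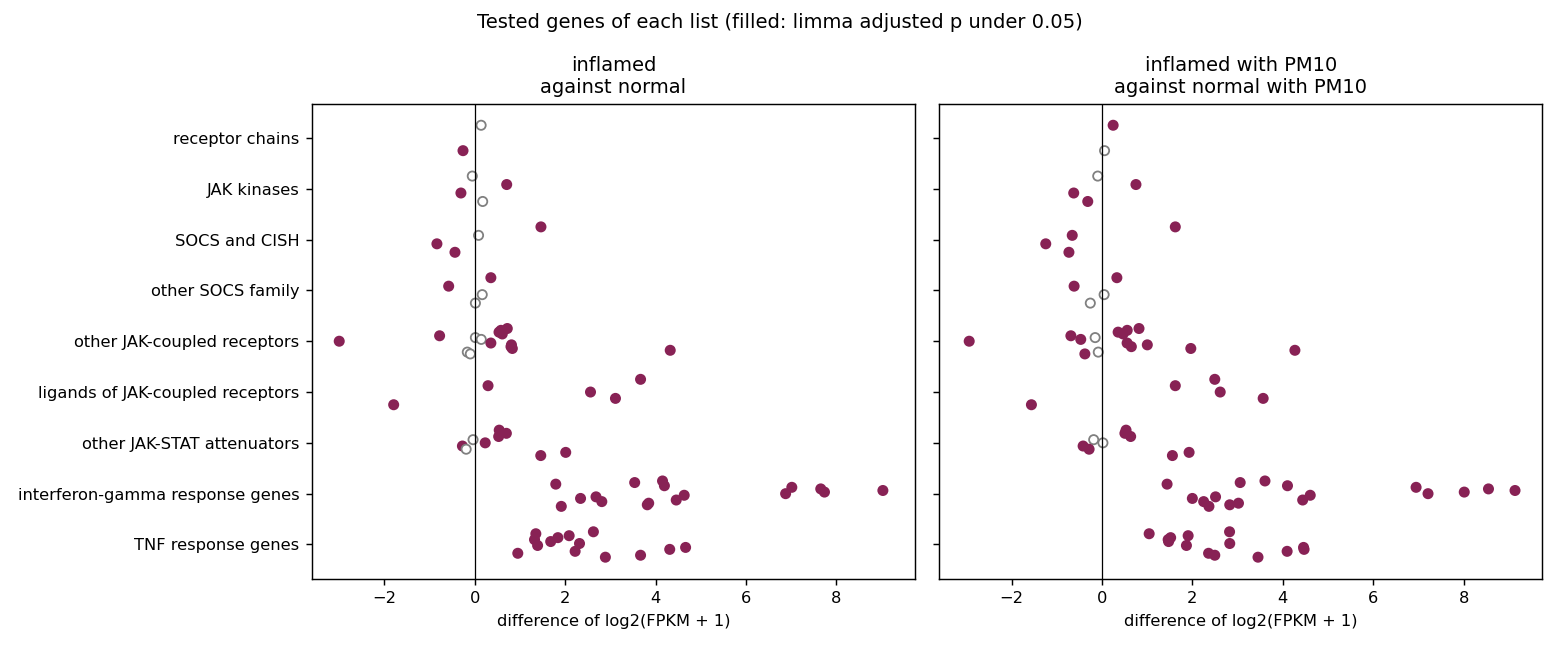
Difference of log2(FPKM + 1) of every tested gene (points) in 9 lists around the pathway, for inflamed against normal hIECs (left) and the same with PM10 (right), filled where the limma adjusted p was under 0.05. The IFNγ and TNF response genes, some of which passed the filter only through libraries with cytokines, all lie to the right of 0. Their medians are 4.15 and 2.16 on the left. The receptor chains, JAK kinases and SOCS genes lie on both sides of 0 in the left panel.

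Marker genes of other cells and of growth moved with the same groups. The 13 intestinal epithelial markers summed to 658 and 667 FPKM in normal hIECs, 614 and 651 with PM10, 361 and 356 in inflamed hIECs, and 317 and 299 in inflamed hIECs with PM10. The group means of SOCS3 stood in the same order. The sum was mostly KRT8 and KRT18, keratins of simple epithelia, whose log2 differences after cytokines were -0.82 and -0.99. Of 5 epithelial markers that passed the filter, 3 fell and 1 rose, beside 30.3% of all genes called lower and 25.9% called higher. The largest change was that of SOX9, a transcription factor of intestinal progenitors, with 14.97 and 13.5 FPKM in normal and 3.88 and 3.95 in inflamed hIECs (log2 difference -1.63). The marker that rose was LGR5, a marker of intestinal stem cells, which rose by 0.97 (limma adjusted p = 0.00013) and by a further 0.49 with PM10 (limma adjusted p = 0.0172). The 8 proliferation markers all rose in inflamed hIECs, beside 25.9% of all genes called higher. Their sum went from 125 and 116 FPKM to 205 and 200, with PCNA the most abundant. With PM10 in normal hIECs, 5 of the 8 fell, where 9.23% of all genes were called, and the sum was 97.8 and 91.9 FPKM. CDK1, a kinase of the cell cycle, was 1.80-fold lower there (limma adjusted p = 0.0008). Among haematopoietic markers, CD3E, CD4, CD8A and MS4A1 were listed at 0 in all libraries, and PTPRC, the pan-leukocyte gene, was at most 0.524 FPKM and was listed at 0 in all 4 libraries with cytokines. All 3 that passed the filter were called in inflamed against normal hIECs, where 56.2% of all genes were called. Of these, LCP1 passed the filter only through the libraries with cytokines. LCP1, an actin-bundling protein of leukocytes, rose from 0.600 and 0.398 FPKM to 3.18 and 3.29, and stood at 6.10 and 6.27 in inflamed hIECs with PM10. FCER1G, an Fc receptor subunit, rose by 1.14 on the log2 scale, whereas CORO1A, an actin-binding protein, fell by 0.60. Of 6 endothelial markers, 5 were at 0. The part of the epithelial, haematopoietic and proliferation markers in the changes of the members was not tested.

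Mesenchymal and neuronal markers also moved in both directions. Of the 12 mesenchymal markers, 5 rose and 5 fell in inflamed hIECs, beside 25.9% of all genes called higher and 30.3% called lower. Their sum was 4288 and 4327 FPKM in normal and 4520 and 4565 in inflamed hIECs. With PM10 the sum was 3816 and 3825 in normal and 3851 and 3819 in inflamed hIECs, and 8 of the 12 fell with PM10 in inflamed hIECs, beside 9.02% of all genes. LUM, a proteoglycan of the matrix, rose there by 0.51. The interaction of PM10 and cytokines was called for 8 of the 12, beside 6.6% of all genes. Neuronal markers, with STMN2 the most abundant of 8, summed to 209 and 199 FPKM in normal hIECs and to 121 and 121 in inflamed hIECs. STMN2, TUBB3 and SNAP25 fell, and SYT1, a synaptic vesicle protein, rose by 0.72. The part of these cells in the PM10 differences was not tested.

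For each member, the genes with the most similar pattern were sought among 3504 tested genes whose log2(FPKM + 1) spanned at least 1, by Pearson's correlation over the 8 libraries. SOCS1 was most like TLR3, a sensor of double-stranded RNA, and IL12RB1, an IL-12 receptor chain (r = 0.998 for both). JAK2 was most like ERLIN1 (r = 0.995) and GCLM (r = 0.995), SOCS3 like PRRT2 and BEND5 (r = 0.998 for both), and JAK3 like SEPT7P2 (r = 0.991) and RFX2 (r = 0.988). The correlations of SOCS2 with TRIL (r = 0.954) and of CISH with PDZD7 (r = 0.978) were lower. All points share 4 groups of 2 libraries, so these values describe a common step between groups. TYK2 was most like HOXC5 (r = 0.878), and IFNGR1 most like B3GNT10 (r = 0.978).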

How the data were processed

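RNA was poly-A selected, and pairs of 100-base reads were made without keeping the strand. Per the methods of the study, the authors used Cutadapt 3.7 for adapters and Sickle 1.33 for quality (Phred 20, at least 50 bases kept), mapped the reads with HISAT2 2.2.1 to GRCh38 and computed FPKM in StringTie 2.2.0. The annotation release is not given in the sources used here, and 99.5% of identifiers occurred in GENCODE 44, which gave positions and overlaps.

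The deposited FPKM values hold no counts. log2(FPKM + 1) of the 14206 genes that reached 1 FPKM in 2 or more libraries was fitted with limma 3.58.1 (R 4.3.3), with a variance trend, all 8 libraries and 4 group means, in 5 comparisons. Benjamini-Hochberg adjustment was made per comparison, with 0.05 as the threshold. The script was tested on simulated data. Named genes were the 10 members, up to 4 genes per list with the largest called change in inflamed against normal hIECs, and defining cell markers. Genes named beyond this rule (JAK-coupled receptor chains, IRF1, CIITA, lymphocyte markers, STAT3, STAT6, PIAS3, IL11RA) were chosen after their values were seen. The 10 members and all lists were chosen with earlier results of these data known. Libraries with the same replicate number showed no large shared shift over the genes tested, which cannot show whether they were paired by design. Alternatives covered the pseudocount, filters, scaling, the trend, the groups in the fit, the replicate number as a block and each library left out. Motifs and figures were made with Python 3.11.15, pandas 2.3.3 and matplotlib 3.10.9. Some genes of the lists are not reported here.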

Additional observations from a re-analysis of the deposited data

Results flagged for a closer look

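TYK2 stood out because its PM10 difference had opposite signs in the 2 kinds of culture, and the test of the difference itself passed. In normal hIECs the log2 difference was 0.29 and in inflamed hIECs it was -0.20, which did not pass the test by itself (limma adjusted p = 0.0861), with an interaction of -0.49 (SE 0.09, limma adjusted p = 0.0287). The 4 groups held 16.4 and 16.8, 19.9 and 21.2, 17.8 and 20.01, and 16.5 and 16.2 FPKM in the order normal, normal with PM10, inflamed and inflamed with PM10. Under the other settings and with single libraries left out, the limma adjusted p of the interaction ranged from 0.0205 to 0.103.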

How the results depend on the processing

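For single members, 299 values of called differences kept their direction and call under the alternatives, 38 lost the call and none changed sign. SOCS1, JAK2 and SOCS3 kept their calls in both cytokine comparisons. Without PM10, CISH lost its call with no filter on low values (limma adjusted p = 0.0643) and after rescaling without genes of mitochondrial DNA (0.0551). The numbers of genes and of members called moved with single libraries and with other settings, and the cause was not tested. Precision was limited by 2 libraries per group. Values near 2 FPKM rest on a mean depth of about 10, under the assumption made above for the depth.

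With single libraries left out, the members called ranged from 3 to 7 in inflamed against normal hIECs (3 without inflamed replicate 2), from 0 to 1 for PM10 in normal hIECs, from 1 to 5 for PM10 in inflamed hIECs and from 0 to 3 for the interaction. Over all genes tested, the calls ranged from 194 to 2627 for PM10 in normal hIECs, from 675 to 2992 for PM10 in inflamed hIECs and from 263 to 1266 for the interaction. For PM10 in normal hIECs, 0 members were called with no filter on low values, with median centring, with quantile normalization, without the trend and in a fit of the 4 libraries compared. The genes called there numbered 2067 after rescaling without genes of mitochondrial DNA and 23 in the fit of the 4 libraries compared, instead of 1311. For the interaction, 2 members instead of 1 were called with pseudocounts of 0.1 and 0.5, at least 5 FPKM, median centring, quantile normalization and rescaling without genes of mitochondrial DNA. The second was IFNGR2 with median centring and quantile normalization and SOCS3 with the others.

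Signs changed only for differences that were not called. For PM10 in normal hIECs, median centring and quantile normalization gave -0.034 and -0.059 for IFNGR1 and -0.0258 and -0.0261 for CISH, median centring gave -0.011 for SOCS1, and rescaling without genes of mitochondrial DNA gave 0.0049 for SOCS3. With single libraries left out, these values ranged from -0.091 to 0.13 for IFNGR1, -0.20 to 0.0052 for IFNGR2, -0.023 to 0.21 for JAK2, -0.026 to 0.11 for SOCS1, -0.38 to 0.011 for SOCS2, -0.11 to 0.047 for SOCS3 and -0.19 to 0.25 for CISH. In inflamed against normal hIECs they ranged from -0.17 to 0.059 for JAK1 and from -0.022 to 0.19 for SOCS2. The interaction of JAK1 was 0.0067 after median centring and 0.0078 after quantile normalization. With single libraries left out, the interaction ranged from -0.0059 to 0.22 for IFNGR1, -0.15 to 0.072 for JAK1 and -0.072 to 0.16 for JAK2.

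The replicate numbers showed no large shared shift between libraries, since deviations of libraries with the same number correlated at -0.0015 to 0.08 over 6 pairs of groups. These correlations cannot show whether the libraries were paired by design. With the replicate number as a block, the numbers of members called stayed at 6, 8, 1 and 3, and 2 were called for the interaction instead of 1, the second being SOCS3 (limma adjusted p = 0.0481). In inflamed against normal hIECs, CISH then lost its call (limma adjusted p = 0.0610) and TYK2 gained one (0.18, limma adjusted p = 0.0490).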
